A study of Mus musculus with 2 samples.

Results

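The replication-dependent core histone genes encode the H2A, H2B, H3 and H4 proteins around which DNA is wrapped in the nucleosome. They were taken as the protein-coding gene rows whose GENCODE M21 symbol begins with Hist1h, Hist2h, Hist3h or Hist4h followed by 2a, 2b, 3 or 4. The annotation holds 61 protein-coding genes with such a symbol, and 58 of them were matched by gene identifier among 43346 Ensembl gene rows. The 58 genes were 18 of H2A, 15 of H2B, 12 of H3 and 13 of H4. By cluster they were 46 of Hist1 on chromosome 13, 9 of Hist2 on chromosome 3, 2 of Hist3 on chromosome 11 and 1 of Hist4 on chromosome 6. Hist2h2bb, Hist1h2bh and Hist1h2bm were not matched and are not analysed here.

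The RNA came from CFU-E cells, erythroid progenitors that divide before they fill with haemoglobin. They were primary cells isolated from the bone marrow of male C57BL/6J mice aged 5 to 6 weeks, and the labels name no mutant allele and no treatment. Both libraries belong to this 1 group, so no test between conditions was possible, and every comparison below is a description over 2 libraries. Each library was made from 100 ng of total RNA after ribosomal RNA depletion, a method that keeps messages without a poly(A) tail. The labels give both libraries the same donor entry and different cell samples, so part of the spread between them can be technical. They held 62576357 estimated reads over Ensembl genes in replicate 1 and 36889517 in replicate 2. By TPM (transcript abundance corrected for length and scaled to the same total in each library), nuclear protein-coding genes made up 12.4% of the total in replicate 1 and 7.49% in replicate 2, so TPM values run higher in replicate 1 for most genes. All 12 erythroid progenitor markers looked at reached 1 TPM in each library, led by Slc4a1, which encodes band 3. Granulocyte markers were also present: 8 of 8 reached 1 TPM in each, with a summed level of 1197 TPM in replicate 1 and 604 in replicate 2, and their part in the histone values was not tested. The early progenitor markers Kit, Cd34, Gata2 and Meis1 were under 1 TPM in both, among them Kit, a receptor commonly used to define CFU-E cells, at 0.42 and 0.51 TPM.

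Core histone messages are made in S phase, when newly copied DNA must be packed, and are destroyed when replication ends. Most are transcribed from intronless genes in clusters, and they end in a conserved stem-loop, bound by the protein SLBP, in place of a poly(A) tail. H2A and H2B enter the nucleosome as dimers and H3 and H4 as a tetramer, with equal numbers of all 4 proteins. In bulk RNA the share of cells in S phase and the amount of message per cell cannot be told apart.

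The stem-loop was looked for after the stop codon of the GENCODE M21 transcripts. The pattern was a left arm of 6 bases beginning GG, a loop of 4 bases and a right arm that pairs with the left with at most 1 mismatch. The loop had to begin TT and hold only T, C or A. The stem-loop was found in 38 of the 45 genes whose annotated transcript runs at least 16 bases past the stop codon. It began 21 to 58 bases after the stop codon, with a median of 32. Other genes were searched within the first 74 bases after the stop codon. That limit was set by the farthest core histone match, so all 38 fall inside it by construction. Within it the pattern matched 0.122% of 20568 nuclear protein-coding genes that are neither core nor linker histones, and 4 of 9 linker histone genes. The left arm split the classes: all 27 matched H2A, H2B and H3 genes had 1 form, and the 11 matched H4 genes had 2 others, in 9 and 2 genes. A form of each arm is shown for that reason, with capitals for the arms and lower case for the loop. Form A was found in 10 H2A, 6 H2B and 5 H3 genes, form B in 2 H2B and 3 H3 genes, form C in 7 H4 genes and form D in 2 H4 genes.
Form A: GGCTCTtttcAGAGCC
Form B: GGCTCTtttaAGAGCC
Form C: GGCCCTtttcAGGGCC
Form D: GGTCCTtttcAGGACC

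The 38 genes with a matched stem-loop gave 75.9% of the core histone TPM in replicate 1 and 75.6% in replicate 2. Another 13 genes, annotated with fewer than 16 bases after the stop codon and so not searchable, gave 21.5% and 21.9%. The remaining 7 were searched without a match, namely Hist1h2bc, Hist1h2bq, Hist1h2br, Hist1h3g, Hist1h4a, Hist2h2be and Hist2h3b, and gave 2.52% and 2.47%. Of these, Hist2h3b is annotated with only 37 bases after the stop codon. In its near-identical copies Hist2h3c1 and Hist2h3c2 the match begins 30 bases after the stop codon and spans 16. A stem-loop at that place would run past the annotated end of Hist2h3b.

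Promoter windows from RefSeq (build GRCm38.p6), 250 bases before to 50 after each annotated start, were matched for 53 of the 58 genes. Searched on both strands, the letters CCAAT, named for the CCAAT box, were in 18 of 18 H2A, 13 of 13 H2B and 10 of 10 H3 windows but in 3 of 12 H4 windows, against 37.4% of 32851 windows in all. TATAAA was in 58.5% of core histone windows, against 13.6% of all windows. The octamer ATTTGCAT, a letter string bound by OCT1, was in 7 H2A and 5 H2B windows and in 0 H3 and 0 H4 windows, against 1.74% of all windows. TTTCGCGC, an E2F-type string, was in 5 H2A and 4 H2B windows, against 0.323% of all windows. Windows of neighbouring genes transcribed away from each other overlap, so the 9 windows with TTTCGCGC hold 5 genome positions and the 12 with the octamer hold 9. A second E2F-type string, TTTGGCGC, was in 0 core histone windows, against 0.514% of all windows. A match is a string of letters only, and no binding was measured here.

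The 250 bases before the start are shown for 5 genes that span the range of letters and levels; capitals mark the first 4 searched strings on either strand. Hist1h2bk (chr13:22035571-22035820 on the plus strand) holds all 4 of these strings, and its window lies between this gene and Hist1h2ah, transcribed the other way. Hist1h2bb (chr13:23746484-23746733 on the plus strand) holds 3 of them. Hist1h3d (chr13:23575513-23575762 on the plus strand) holds CCAAT and TATAAA without the octamer. Hist1h4f (chr13:23551669-23551918 on the minus strand), one of the most abundant H4 genes, holds no CCAAT. Hist1h2aa (chr13:23934187-23934436 on the plus strand) is a testis gene with 0 counts in both libraries, and its window holds the same 3 strings as that of Hist1h2bb.
Hist1h2bk: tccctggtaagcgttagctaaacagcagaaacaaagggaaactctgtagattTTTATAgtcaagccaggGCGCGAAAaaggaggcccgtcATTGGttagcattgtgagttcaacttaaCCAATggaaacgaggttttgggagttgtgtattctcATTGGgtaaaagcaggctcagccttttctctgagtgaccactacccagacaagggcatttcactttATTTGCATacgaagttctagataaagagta
Hist1h2bb: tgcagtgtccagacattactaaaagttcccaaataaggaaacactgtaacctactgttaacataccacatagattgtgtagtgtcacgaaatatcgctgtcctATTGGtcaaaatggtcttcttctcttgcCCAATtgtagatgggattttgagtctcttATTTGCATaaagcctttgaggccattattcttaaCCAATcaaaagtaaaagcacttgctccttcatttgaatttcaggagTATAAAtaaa
Hist1h3d: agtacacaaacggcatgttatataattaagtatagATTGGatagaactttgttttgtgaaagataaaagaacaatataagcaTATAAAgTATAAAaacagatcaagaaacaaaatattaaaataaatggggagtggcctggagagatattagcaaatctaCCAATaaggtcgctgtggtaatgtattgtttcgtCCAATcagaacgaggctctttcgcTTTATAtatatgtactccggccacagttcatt
Hist1h4f: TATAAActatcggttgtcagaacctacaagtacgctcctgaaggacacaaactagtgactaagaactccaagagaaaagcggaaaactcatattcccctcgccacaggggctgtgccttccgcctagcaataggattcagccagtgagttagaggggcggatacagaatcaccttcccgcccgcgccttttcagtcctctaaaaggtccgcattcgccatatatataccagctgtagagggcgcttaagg
Hist1h2aa: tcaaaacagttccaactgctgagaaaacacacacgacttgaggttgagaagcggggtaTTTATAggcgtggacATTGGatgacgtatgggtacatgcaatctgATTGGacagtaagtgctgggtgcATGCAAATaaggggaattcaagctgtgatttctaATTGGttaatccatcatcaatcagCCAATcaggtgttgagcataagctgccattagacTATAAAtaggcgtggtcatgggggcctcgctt

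**Figure D1:**
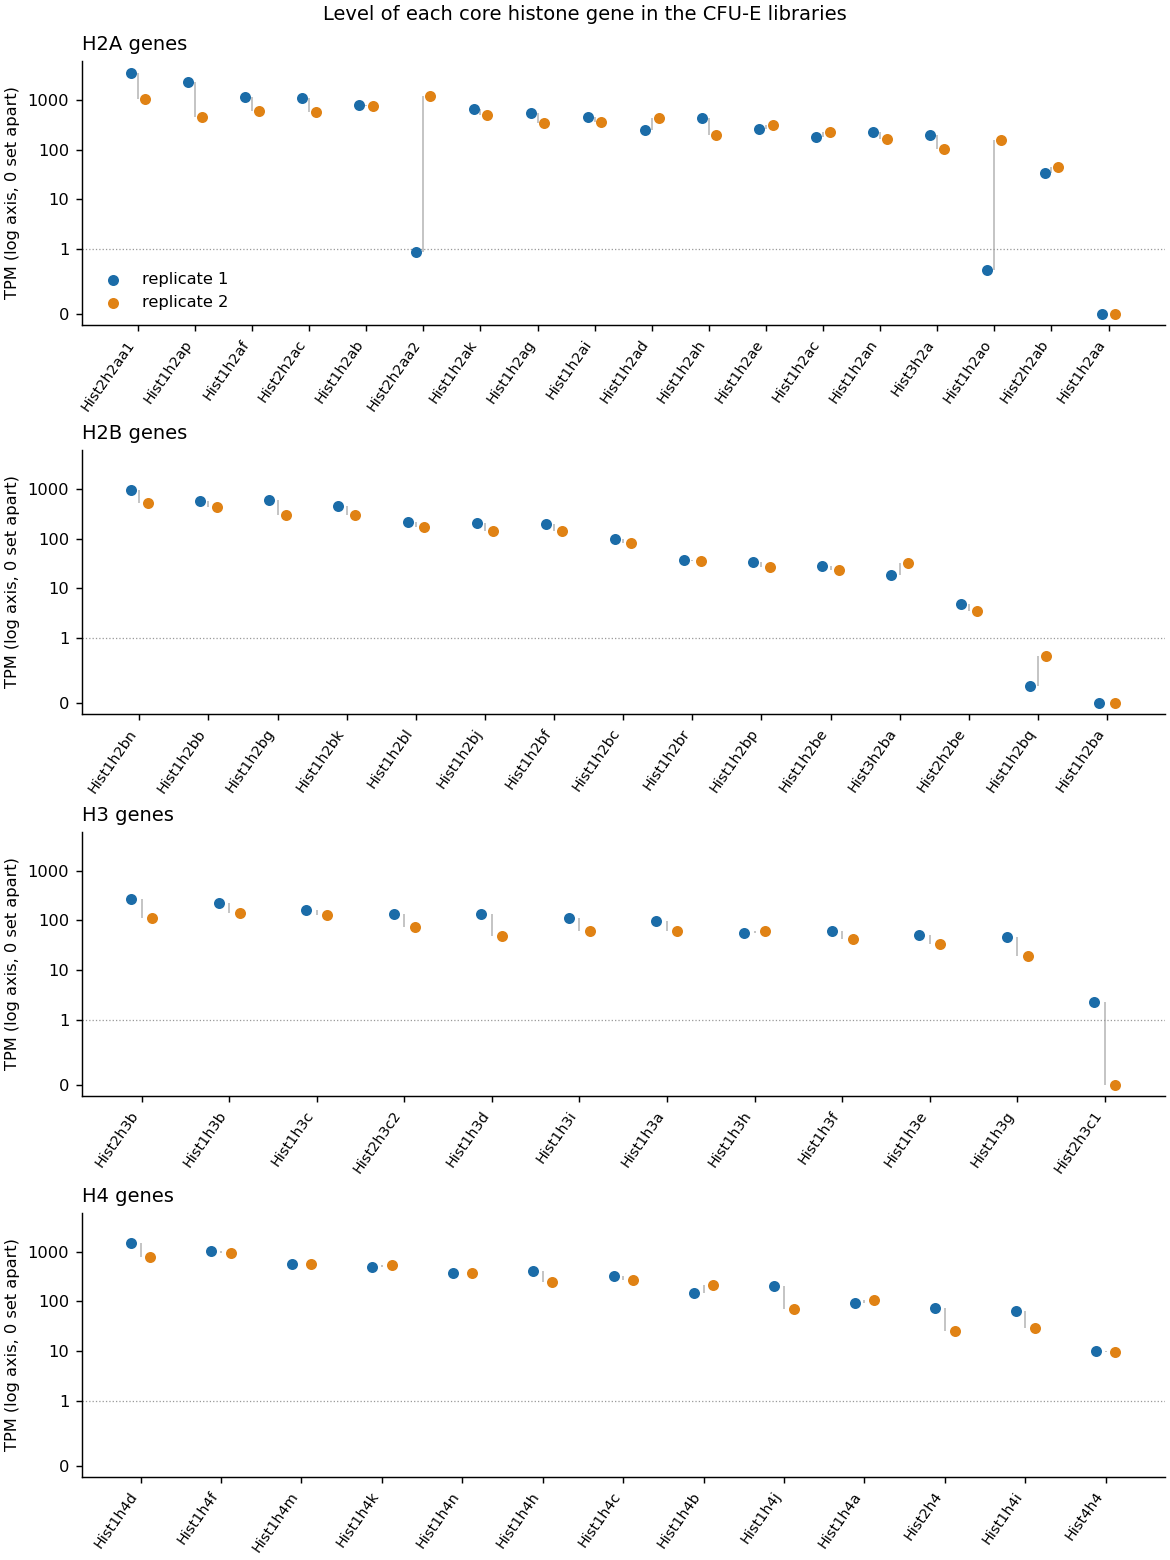
TPM of each of the 58 core histone genes (log vertical axis, with 0 set apart at the foot) by class, ordered by mean; blue and orange points are replicates 1 and 2, a grey line joins them and the dotted line is 1 TPM. Most genes lie between 10 and 1000 TPM, the testis genes Hist1h2aa and Hist1h2ba are at 0, and Hist2h2aa2, Hist1h2ao and Hist2h3c1 are at or near the foot in 1 library only.

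Core histone messages were among the most abundant of these cells. Of the 58 genes, 52 reached 1 TPM in each library, against 23.9% of 21461 nuclear protein-coding genes. At 100 TPM or more in each there were 32 of the 58, against 0.363% of nuclear protein-coding genes, so 32 of the 78 genes at that level were core histone genes. The 100 most abundant nuclear protein-coding genes included 35 of them in replicate 1 and 36 in replicate 2.

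Together the 58 genes took 1.60% of the estimated reads in replicate 1 and 1.80% in replicate 2. Of nuclear protein-coding reads they took 3.46% and 3.85%. Measured by TPM, which divides by effective length, they made 17.7% and 19.5% of nuclear protein-coding TPM, a mean of 18.6 ± 1.23 (SD, n = 2). The gap between the read and TPM shares is one of length. The median row was 476.5 bases long, of which 254.5 counted as effective in replicate 1 and 294.8 in replicate 2, while other expressed nuclear protein-coding rows had a median length of 2474 bases. Dividing by annotated in place of effective length gave a mean share of 13.6%.

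The 4 classes were unequal. H2A genes summed to 12007.5 TPM in replicate 1 and 7440.1 in replicate 2, a mean of 9724 ± 3229.7 TPM (SD, n = 2 here and in the other class sums). H4 genes summed to 5267 and 4185 TPM, a mean of 4726 ± 765. H2B genes summed to 3404 and 2181 TPM, with a mean of 2793 ± 864.5, and H3 genes to 1356 and 777 TPM, with a mean of 1066 ± 409. The order H2A, H4, H2B, H3 was the same in both libraries, and it was also the order in estimated reads and in reads divided by annotated length. The 3 unmatched genes are all of H2B, so the H2B sum can be too low beside the other classes.

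As log2 ratios of TPM sums, H2A over H2B was 1.82 in replicate 1 and 1.77 in replicate 2, a mean of 1.79 ± 0.03. H3 over H4 was -1.96 and -2.43, a mean of -2.19 ± 0.33. The dimer classes over the tetramer classes, H2A and H2B over H3 and H4, gave 1.22 and 0.96, with a mean of 1.09 ± 0.19. In reads with no length correction the H3 over H4 ratio was smaller in size, at -1.42, since the H3 rows were longer, with a median of 547 bases against 430 for H4. Annotated row length also differs in kind: 10 of the 58 rows (4 of H2A, 3 of H2B, 2 of H3 and 1 of H4) held the coding sequence alone. The H2A over H2B ratio was 2.17 without those rows. The unmatched genes were all of H2B, and their absence can raise this ratio.

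**Figure D2:**
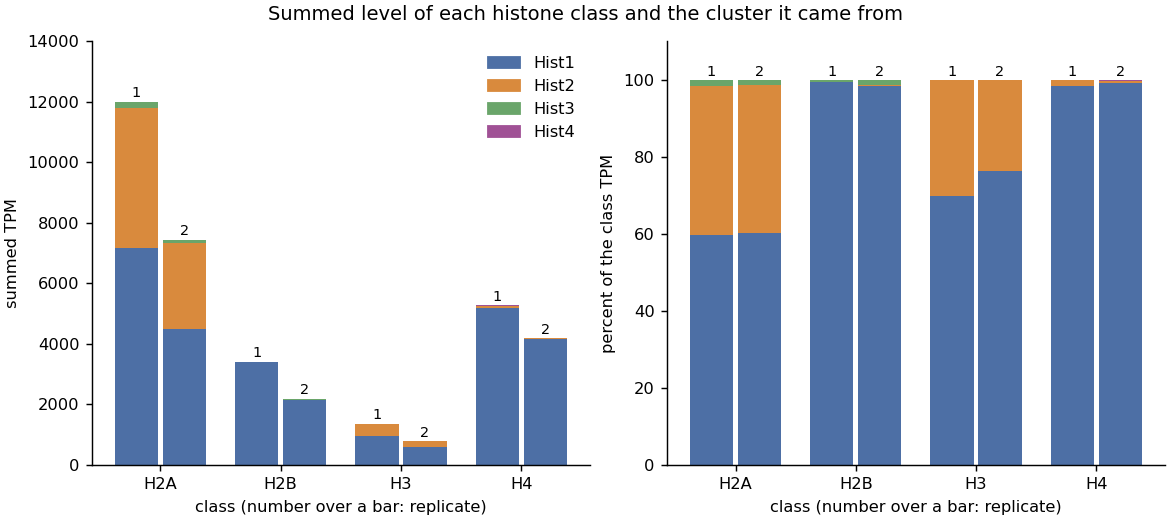
Summed TPM of H2A, H2B, H3 and H4 genes (left) and the percent of each class's TPM (right), stacked by cluster, with replicate 1 and replicate 2 side by side. H2A is the highest class in both libraries, and Hist2 gives 38.7% and 38.4% of H2A TPM but 0.141% and 0.16% of H2B TPM. The unmatched H2B genes, among them Hist2h2bb, are not included.

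H2A forms the dimer partner of H2B, and its genes encoded 9 different proteins. The commonest protein, shared by 9 Hist1 genes, gave 41.2% of H2A TPM in replicate 1 and 42.8% in replicate 2. A second protein came from Hist2h2aa1 and Hist2h2aa2, near-identical genes on chromosome 3, whose joint level was 3528 TPM in replicate 1 and 2237 in replicate 2. This was 29.4% and 30.1% of H2A TPM, so about the same share in both libraries. Their separate values were not stable: Hist2h2aa1 had 3527 TPM in replicate 1 and 1031 in replicate 2, while Hist2h2aa2 had 0.87 and 1207. The reads were given almost wholly to 1 copy in replicate 1 and evenly to both in replicate 2, so the sum is the only readable value.

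The highest joint H2A level after summing near-identical copies (transcripts at least 98% identical over at least 90% of the shorter) was 6508 TPM in replicate 1 and 3989.5 in replicate 2, from 11 Hist1 genes. Within it Hist1h2ao and Hist1h2ap, 100% identical where they align, summed to 2231 and 616 TPM. Unlike the Hist2h2aa copies, this pair differed between libraries even when summed. Both genes are also at least 98% identical to other genes of the 11, and reads can be divided among all of these. The part of that division in the difference was not tested. Hist1h2af had 1125 and 610 TPM, and Hist1h2ab had 791 and 748. Which of these genes differs depends on the scale, since in reads scaled so that the bulk of genes is level the log2 ratio of replicate 1 over replicate 2 was 0.01 for Hist1h2af and -0.72 for Hist1h2ab.

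Among H2A genes that stand alone, Hist2h2ac had 1086 TPM in replicate 1 and 573 in replicate 2, and Hist1h2ak had 653 and 495. Hist3h2a, on chromosome 11, had 199 and 102 TPM. Its row is 2146 bases long, so it ranked far higher by reads, with 62468 in replicate 1 and 30195 in replicate 2, more than Hist2h2ac in both libraries. Hist2h2ab was low, at 34.1 and 44.0 TPM.

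H2B genes also encoded 9 proteins. The commonest, from Hist1h2bf, Hist1h2bj, Hist1h2bl, Hist1h2bn and Hist1h2br, gave 46.6% of H2B TPM in replicate 1 and 45.7% in replicate 2. Joined by identity, 8 Hist1 H2B genes summed to 1716 TPM in replicate 1 and 1104 in replicate 2, and within them Hist1h2bn was highest, at 934 and 511. Hist1h2bb had 581 and 425 TPM, Hist1h2bg 593 and 297, and Hist1h2bk 457 and 293. Among matched genes, H2B outside Hist1 was scarce: Hist3h2ba had 18.2 TPM in replicate 1 and 32.1 in replicate 2, and Hist2h2be 4.8 and 3.49. Hist2h2bb, an H2B gene of Hist2, was not matched, so its level is not known here. Hist2h2be is known in mouse for use in non-dividing sensory neurons, and its 1881 and 1284 reads were all assigned without sharing.

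Some H2B genes have annotated transcripts of 2 or more exons, unlike the intronless form of most histone genes. In Hist1h2bp a 2-exon transcript held 61.5% of the gene's TPM in replicate 1 and 64.1% in replicate 2, at 21.2 and 17.6 TPM. Both transcripts of Hist1h2be that hold 2 exons made up 85.2% in replicate 1 and 89.6% in replicate 2 of a gene at 28.1 and 23.3 TPM. The division between those transcripts moved with the library, with 2.49% and 45.0% for the first and 82.7% and 44.6% for the second. The other transcript of Hist1h2be has 1 exon and no annotated coding sequence. Reads of an intronless coding form thus had no transcript of their own, so these shares do not measure splicing. For Hist1h2bc, with 99.9 and 82.96 TPM, Hist1h2br, with 37.3 and 36.1, and Hist1h2bq, with 0.11 and 0.43, the transcripts in the files include none of 1 exon in GENCODE M21, so the reads could be assigned to no other form and their values say nothing on splicing.

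H3 genes encoded 2 proteins that differ at 1 of 136 residues, counted with the first methionine. These are the proteins known as H3.2, which has 8 genes here, and H3.1, which has 4. To show the site, 33 coding bases (274 to 306 of the coding sequence) are given for the 2 most abundant genes of each protein, the first protein's genes first. Capitals mark codon 97, which was the same in all 8 genes of the first protein and, in its other form, in all 4 of the second.
Hist2h3b: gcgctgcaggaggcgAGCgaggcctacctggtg
Hist1h3b: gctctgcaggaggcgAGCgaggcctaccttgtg
Hist1h3i: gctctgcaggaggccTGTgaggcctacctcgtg
Hist1h3a: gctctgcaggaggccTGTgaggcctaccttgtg

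The H3 protein with 8 genes gave 76.7% of H3 TPM in replicate 1 and 74.1% in replicate 2, a mean of 75.4 ± 1.88% (SD, n = 2). The 4 genes of the other, Hist1h3a, Hist1h3g, Hist1h3h and Hist1h3i, gave 23.3% and 25.9%. The split was close to the same in both libraries, and in estimated reads the first protein's mean share was 84.3%.

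The highest single H3 row was Hist2h3b, with 272 TPM in replicate 1 and 111.6 in replicate 2. With Hist2h3c2, at 134 and 72.9 TPM, and Hist2h3c1, at 2.25 and 0, the Hist2 H3 genes summed to 408.8 and 184.5 TPM. For Hist2h3c1 the files give an allocation SD of 326 on an estimate of 588 reads in replicate 1, and an interval of 1.25 to 5.63 TPM, so its level is poorly fixed. The 8 joined Hist1 H3 genes summed to 788 and 464 TPM, led by Hist1h3b at 226 and 139, and Hist1h3c stood apart at 159 and 128. No H3 gene reached 300 TPM in either library, whereas 12 of the 18 H2A genes did so in at least 1.

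All 13 H4 genes encode the same protein of 103 residues from 12 different coding sequences. The first 90 coding bases are shown because the genes differ only in bases that leave the protein unchanged; capitals mark bases that differ from Hist1h4m. Hist1h4n is identical to it over the whole 312 coding bases, Hist1h4d differs at 20 of them, Hist2h4 at 34 and Hist4h4 at 42.
Hist1h4m: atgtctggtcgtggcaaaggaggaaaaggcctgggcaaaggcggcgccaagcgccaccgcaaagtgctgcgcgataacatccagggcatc
Hist1h4n: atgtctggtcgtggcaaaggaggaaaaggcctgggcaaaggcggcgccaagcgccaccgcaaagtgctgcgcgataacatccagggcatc
Hist1h4d: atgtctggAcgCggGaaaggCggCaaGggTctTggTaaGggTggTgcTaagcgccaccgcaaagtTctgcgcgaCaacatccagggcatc
Hist2h4: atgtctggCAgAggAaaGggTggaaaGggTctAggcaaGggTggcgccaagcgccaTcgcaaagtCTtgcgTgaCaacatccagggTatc
Hist4h4: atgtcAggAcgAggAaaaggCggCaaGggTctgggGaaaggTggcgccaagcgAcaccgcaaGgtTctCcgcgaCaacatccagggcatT

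Hist1h4d had the highest H4 level, 1493 TPM in replicate 1 and 790 in replicate 2, a mean of 1141 ± 497.5 (SD, n = 2). Hist1h4f followed with 1023 and 946, a mean of 985 ± 54.4. The ranges of these genes overlap, so their order is not resolved. The identical coding sequences of Hist1h4m and Hist1h4n summed to 931.5 and 942 TPM, and Hist1h4j with Hist1h4k to 703 and 602. Hist2h4 had 72.5 and 24.8 TPM and Hist4h4, on chromosome 6, had 9.98 and 9.42. Both are whole-number counts with an allocation SD of 0, so their low TPM does not rest on how shared reads were divided. It does rest on row length, since these rows are 1630 and 2879 bases long, against 402 for Hist1h4m. In reads Hist2h4 had 16669 in replicate 1 and 5422 in replicate 2, beside 16772 and 18854 for Hist1h4m. Hist4h4 had 4331 and 3834 reads.

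The Hist1 cluster gave 75.7% of core histone TPM in replicate 1 and 78.0% in replicate 2, a mean of 76.8 ± 1.64% (SD, n = 2), from 46 of 58 genes. Hist2, with 9 genes, gave 23.3% and 21.03%. Hist3 gave 0.984% and 0.919%, and Hist4 gave 0.0453% and 0.0646%. The class make-up differed by cluster: 98.4% and 99.2% of H4 TPM and 99.3% and 98.4% of H2B TPM came from Hist1, against 59.6% and 60.3% of H2A TPM and 69.8% and 76.3% of H3 TPM. Hist2h2bb, an unmatched H2B gene of Hist2, is in none of these shares.

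Along chromosome 13 the Hist1 genes fell into 4 blocks set apart by more than 100000 bases. The block of 23 genes from Hist1h4h to Hist1h3a (chr13:23531050-23762386, GRCm38) gave 38.0% of core histone TPM in replicate 1 and 43.5% in replicate 2. The block of 16 genes from Hist1h2bl to Hist1h2br (chr13:21715763-21837530) gave 29.9% and 27.7%, and the 5 genes from Hist1h2ah to Hist1h2bj (chr13:22035164-22043676) gave 7.77% and 6.85%. The last block, chr13:23933773-23934851, holds Hist1h2ba and Hist1h2aa, which encode the testis forms of H2B and H2A. Both had 0 counts in both libraries, where 3 counts would be a level of at most 0.112 TPM.

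That block and 11 other places hold an H2A and an H2B gene transcribed away from each other from starts 175 to 305 bases apart, so that 1 short stretch lies before both genes. Of the 11 pairs with reads, the H2A gene was higher in both libraries in 8 and the H2B gene in 2, and Hist1h2ae with Hist1h2bg turned round between libraries. Most H2A genes of these pairs belong to the joint gene of 11 Hist1 rows, and most H2B genes to that of 8. Their separate levels, and so these ratios, depend on how shared reads were divided. The median log2 ratio of H2A over H2B TPM across the pairs was 1.11 in replicate 1 and 1.44 in replicate 2. As the reads were divided, balanced pairs included Hist1h2ah with Hist1h2bk, the stretch printed above, at -0.07 and -0.58, and Hist1h2ak with Hist1h2bn at -0.52 and -0.05.

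The most unequal pair by the mean of both libraries was Hist2h2ac with Hist2h2be, at 7.82 in replicate 1 and 7.36 in replicate 2. Division of reads between copies adds little error to it: the allocation SD was 0 for Hist2h2be and 0.0324% and 0.0480% of the reads for Hist2h2ac. The starts of these genes are 238 bases apart, and Hist2h2ac was over 500 TPM in each library while Hist2h2be was under 5. Hist1h2an with Hist1h2bp gave 2.71 and 2.58. The pairs of Hist1h2ap and Hist1h2ao, whose reads are divided between near-identical copies, gave 5.90 and 3.67 with Hist1h2br, and 1.79 and 8.52 with Hist1h2bq. In 4 of the 11 pairs the TPM ratio was over 2 on the log2 scale in at least 1 library. In each of these 4 the H2B row is the longer, which raises a ratio in TPM. Hist2h2be has 2620 bases against 520 for Hist2h2ac, and Hist1h2bp 562 against 393 for Hist1h2an. In reads Hist2h2ac had 52832 and 29237 against 1881 and 1284 for Hist2h2be. Hist1h2an had 6367 and 5258 reads against 1917 and 1590 for Hist1h2bp. How far apart partners lie thus depends on annotated length.

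**Figure D3:**
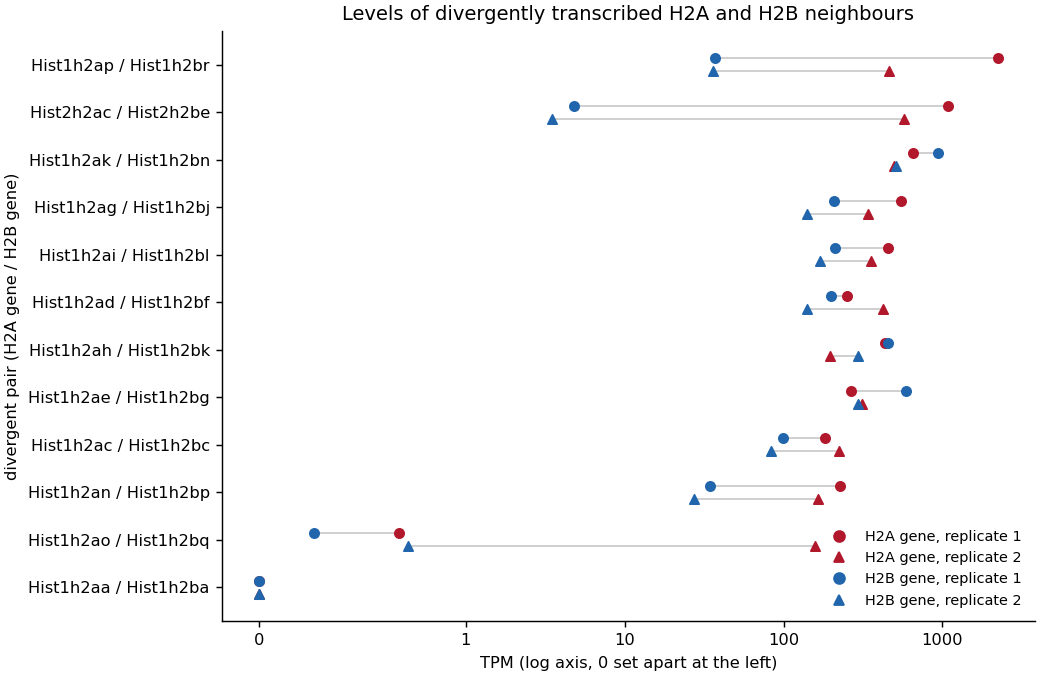
TPM (log horizontal axis, 0 set apart at the left) of the H2A gene (red) and the H2B gene (blue) of each of 12 divergent pairs; circles are replicate 1, triangles replicate 2, and a line joins the partners within a library. Hist2h2ac lies at 1086 and 573 TPM and its partner Hist2h2be at 4.8 and 3.49, while Hist1h2ak and Hist1h2bn lie close together.

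The libraries were compared gene by gene with estimated reads scaled by TMM (trimmed mean of M-values, which sets the bulk of genes level), for rows with a mean of at least 50 reads. Across 56 core histone genes the median log2 ratio of replicate 1 over replicate 2 was -0.34 (the same with Hist2h3c1, which had 0 reads in replicate 2, set at a floor of 3 reads there), against 0.03 over all 10403 rows. At least 2-fold higher in replicate 1 were 3 of the 56, against 10.8% of all rows, and at least 2-fold higher in replicate 2 were 10, against 10.3% of all rows. In all 39 of the 56 were higher in replicate 2, against 5002 of the 10403 rows. With near-identical copies summed the median was nearer to 0, at -0.16, and 18 of 27 joint genes were higher in replicate 2. By deposited TPM, which carries its own scale, the sign turned: the median was 0.46 for core histone genes and 0.66 for other nuclear protein-coding rows.

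Over single rows the lean differed by class and row length. The median ratio was -0.65 for H4 genes, -0.48 for H2A, -0.36 for H2B and 0.02 for H3. With the reads of each class summed, the ratio was -0.37 for H4, -0.22 for H2B, -0.00 for H2A and 0.08 for H3. The H2A lean was thus not seen in the class sum. By length, the median over rows was -0.48 for the 33 core histone rows under 500 bases and -0.08 for the 23 longer ones. Beside these it was -0.41 for 86 other nuclear protein-coding rows under 500 bases and 0.04 for 9338 longer ones. The labelled fragment sizes ran from 209 to 891 bases in replicate 1 and from 186 to 747 in replicate 2. The part of row length or fragment size in the ratio was not tested.

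The largest ratios were those of near-identical copies. Hist2h2aa2 was at -11.20, with 43.3 reads in replicate 1 and 63021 in replicate 2, and Hist1h2ao at -9.44, with 16.1 and 7102. Hist1h2bq followed at -2.54 and Hist1h2ad at -1.56. In the other direction Hist2h3c1 had 588 reads in replicate 1 and 0 in replicate 2, and no fold is given because of the allocation SD stated above. Hist1h2ap was at 1.49, Hist2h2aa1 at 1.04 and Hist2h4 at 0.92. Of these 8, Hist2h4 is the 1 whose reads were all assigned without sharing, with 16669 in replicate 1 and 5422 in replicate 2. Joining copies at 98% identity left 3 joint genes at least 2-fold apart in place of 13 rows. These were Hist3h2ba at -1.55, Hist1h4b at -1.41 and Hist2h2ab at -1.19, each a single row with no copy joined and higher in replicate 2.

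The files carry an SD for how shared reads were divided, which does not include sampling or biological spread. Among core histone genes with at least 1000 reads in both libraries, its median was 0.357% of the read estimate in replicate 1 and 0.648% in replicate 2, and 3 of 51 genes had an SD of 0 in both. For other nuclear protein-coding rows at that depth the median was 0 in both libraries, and 83.8% had an SD of 0. For Hist2h2aa1 it was 31.0 reads of 209474 in replicate 1, far below the change in division between libraries.

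**Figure D4:**
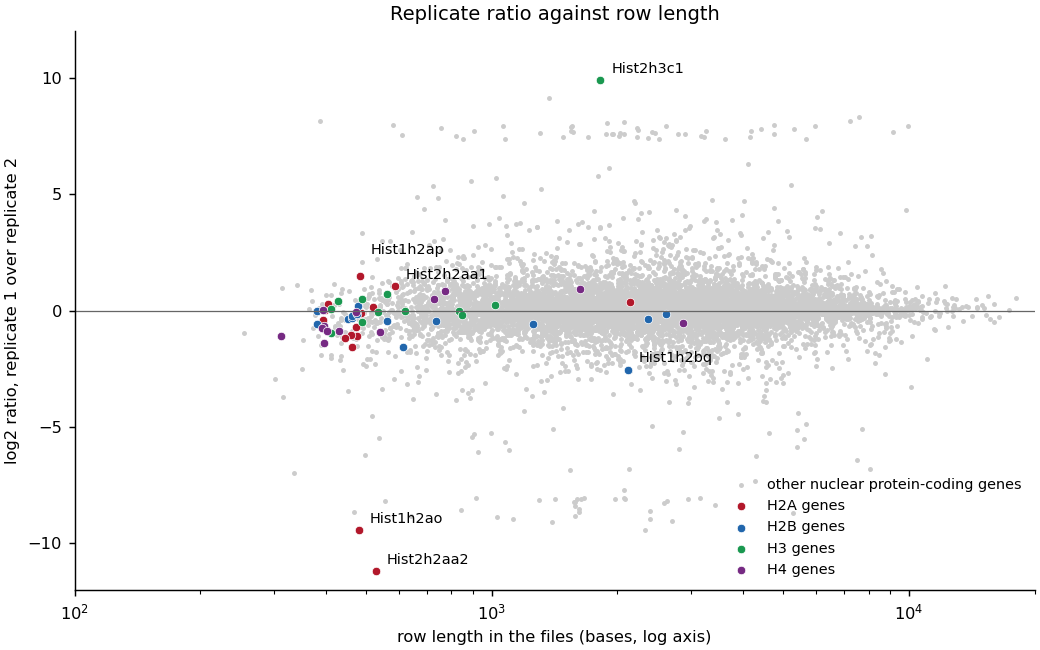
Log2 ratio of replicate 1 over replicate 2 (TMM-scaled reads) against row length in bases (log axis) for core histone genes, coloured by class, and for other nuclear protein-coding rows (grey), all with a mean of at least 50 reads. Hist2h2aa2 and Hist1h2ao lie at -11.20 and -9.44, Hist2h3c1 is drawn at a fitted ratio of 9.89 that rests on 0 reads in replicate 2, and most core histone genes sit at the short end, slightly below 0.

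Other histone and S phase genes were set beside the core histones. Linker histones, which bind DNA between nucleosomes, had 6 of 10 genes that reached 1 TPM in each library, led by Hist1h1d with 875 TPM in replicate 1 and 625 in replicate 2, Hist1h1b with 633 and 581 and Hist1h1e with 653 and 429. The lowest, H1fnt and H1foo, which are germ cell forms, had 0 reads in both. The median core histone gene, by mean of both libraries, was at 178 TPM. For the 10 linker histones the median, 220.4 TPM, falls in a gap between Hist1h1c at 439 and H1f0 at 1.755. No linker gene lies near that value, so the medians do not compare.

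Replacement histones, which are also made outside S phase and mostly from polyadenylated messages, had 8 of 11 genes at that level. H3f3a, which encodes H3.3, had 373 TPM in replicate 1 and 189 in replicate 2, H2afx 227 and 165, and H2afz 77.6 and 64.5. H2afy2, H2bfm and H2afb1 had 0 reads in both. Core H3 genes summed to 1.64 ± 0.06 log2 units (SD, n = 2) above H3f3a and H3f3b in TPM and 0.29 ± 0.03 above them in reads. Core H2A genes summed to 5.03 ± 0.17 log2 units above 6 H2A replacement genes in TPM and 3.33 ± 0.12 in reads. The replacement share was thus larger for H3 than for H2A on both scales.

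Factors that transcribe and process histone messages were present at far lower levels, with 13 of 19 genes reaching 1 TPM in each and a median of 3.80 TPM. Slbp, the stem-loop binding protein, was highest, with 82.9 TPM in replicate 1 and 41.1 in replicate 2. It was followed by Tut7, a uridylyl transferase that acts in histone message decay, at 34.2 and 23.0 and by Srrt, a cap complex partner, at 18.8 and 13.1. Npat, the coactivator of histone gene transcription, had 3.07 and 2.52 TPM, and Lsm11, a part of the U7 particle, was lowest at 0.21 and 0.10.

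S phase replication genes had 26 of 28 reaching 1 TPM in each and a median of 12.7 TPM. Rrm2, a subunit of ribonucleotide reductase, had 88.0 TPM in replicate 1 and 66.5 in replicate 2, Pcna, the sliding clamp, 75.2 and 57.0, and Mcm7, part of the replicative helicase, 40.5 and 33.3. In TPM the median core histone gene was above every replication gene in the list, the highest of which averaged 77.3 TPM. In reads with no length correction this did not hold: 7 of the 28 replication genes in replicate 1 and 5 in replicate 2 were above the median core histone gene, which had 8273 and 7000.2 reads.

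**Figure D5:**
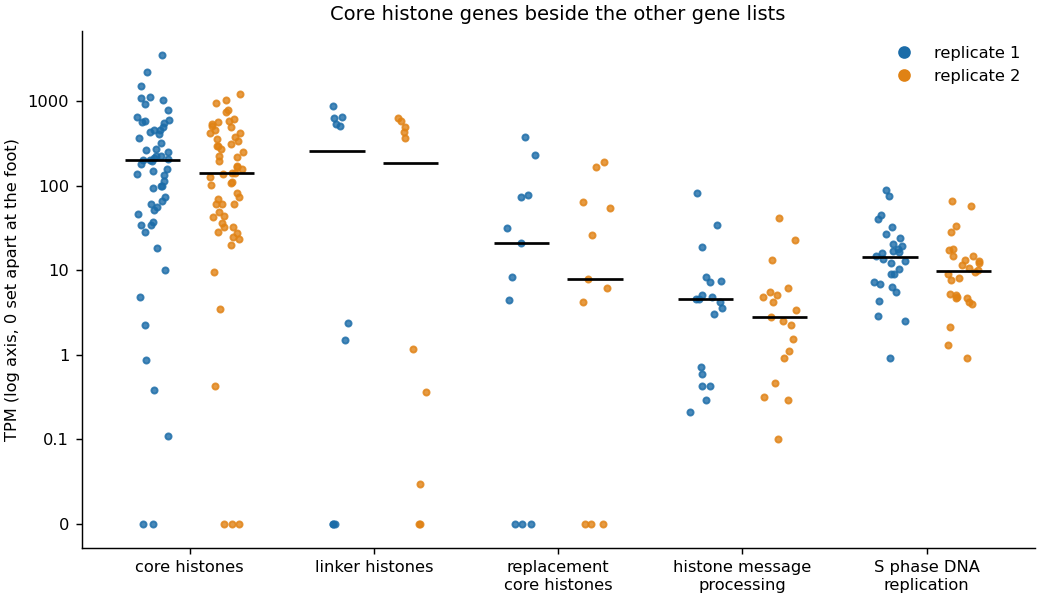
TPM (log axis, 0 set apart at the foot) of each gene in 5 lists, with replicate 1 in blue to the left of replicate 2 in orange; black lines are the medians of each library. Core and linker histone genes reach 1000 TPM or near it, while Rrm2 is the highest replication gene at 88.0 and 66.5 TPM.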

How the data were processed

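Total RNA sequencing of 2 CFU-E libraries was quantified by the authors per gene and per transcript. Per the notes deposited with the tables the reference was mm10 with GENCODE M4; no aligner or quantifier is named by the sources at hand. The deposited expected counts are estimated reads in which reads matching several rows are divided among them, and the deposited TPM divides them by effective length and scales each library to the same total. The deposited transcript tables also give each transcript's percent of its gene. Core histone genes were matched to GENCODE M21 identifiers with the version removed. Expected counts were rounded and scaled by TMM (edgeR 4.0.16, prior count 0.5), with DESeq2 1.42.0 size factors as an alternative; the ratio code was tested on simulated data. With 1 group of 2 libraries no test was run. Copies were joined by BLAST 2.17.0 alignment of transcripts. Effective library sizes were 61216283 and 37709101, so a level resting on few reads is imprecise. Values at 0 have a floor of 3 counts, which covers counting error only. The stem-loop was searched in transcripts in place of a genome. Genes named are the 4 highest joint genes of each class, genes at 0, all Hist2, Hist3 and Hist4 genes, the 4 largest replicate ratios each way, genes with spliced transcripts above 10% of their TPM, and the 3 highest and the lowest of each list, of which 1 is not reported here. Other members were named after their values were seen. The members and lists were chosen with earlier results of these data known.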

Additional observations from a re-analysis of the deposited data

How the results depend on the processing

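Alternatives were run on 11 results, 65 in all; 47 stayed within 1 SD between libraries, within 1.5 times a count, or within 0.1 for the median replicate ratio, which has no SD. Leaving out either library moved none of the 9 results it applies to past those limits; for the 8 that are means of 2 values arithmetic fixes this. In estimated reads with no length correction, the core histone share of nuclear protein-coding genes was 3.65% (also the share of reads over those genes alone), the Hist1 share 64.8%, the share of the first H3 protein 84.3%, the share of the 10 highest joint genes 80.7%, and the log2 ratios 1.95 for H2A over H2B, -1.42 for H3 over H4 and 1.34 for dimer over tetramer classes. With reads divided by annotated length the core histone share was 13.6%, the Hist1 share 73.0%, the H3 protein share 78.7% and H2A over H2B 1.88. Without rows of coding length only, an alternative chosen after seeing the data like the 100% identity and the H3 protein share, H2A over H2B was 2.17. The 10 highest joint genes held 83.5% of core histone TPM, 54.5% with copies not summed and 58.2% with copies joined at 100% identity. The median ratio of replicate 1 over replicate 2 was 0.46 with deposited TPM, against -0.34 as reported, -0.16 with copies summed, which also left 3 joint genes at least 2-fold apart. Fewer units are counted by construction; the cause of the other shifts was not tested. No paired analysis was possible because there is 1 group. Read division between copies limits single H2A, H2B and H3 genes, and effective length limits the shortest rows: Hist1h4k, of 312 bases, had 99.1 effective bases in replicate 1 and 134 in replicate 2.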
